A study of Mus musculus with 4 samples.

Results

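The genes described here were 10 zinc finger transcription factors, the early growth response factors Egr1, Egr2 and Egr3 and the Krüppel-like factors Klf2, Klf3, Klf4, Klf5, Klf6, Klf9 and Klf10. They were picked by name, as the rows of the count table that carry these gene names, and made up 10 of the 52459 genes listed. Intestinal stem cells (ISCs) of wild-type female C57/Bl6 mice were compared at an age of 2 months (ISC_2mth, young) and 22 months (ISC_22mth, old), with no treatment or genetic change in either age. The ISCs were sorted as SM6, a gate of epithelial surface markers (EPCAM+, CD44high, CD166+, EPHB2high, CD24med and GRP78low, without the endothelial marker CD31 and the leukocyte marker CD45), which uses no reporter gene. Each age had 2 libraries, and each library was made from the pooled cells of 5 animals, so that the variation between single animals was not measured. The question was which of these factors differ in RNA level between young and old ISCs.

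EGR and KLF proteins bind GC-rich DNA through zinc fingers at their carboxyl end, and the families recognise related but distinct sequences. EGR genes are immediate early genes. They are switched on within minutes by growth factors and stress through serum response factor (SRF) and its ELK partners, which bind CArG boxes in their promoters, and the EGR proteins are then held back by the corepressors NAB1 and NAB2. Several KLF genes are also early response genes, and in the intestine Klf5 is known from the dividing cells of the crypt and Klf4 from differentiated cells of the villus.

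RefSeq promoter windows of GRCm38.p6, from 250 bases before to 50 bases after an annotated start, were found for 6 of the 10 genes, Egr2, Klf2, Klf3, Klf4, Klf6 and Klf9. They were searched on both strands for the 9-letter EGR binding words GCGTGGGCG and GCGGGGGCG and for the CArG box, and no match of one overlapped a match of another in these 6 genes. The following stretches are shown because they hold an EGR binding word in front of KLF genes, or the CArG box of SRF in front of an EGR gene, with the matched letters in capitals.
Klf2, chr8:72318843-72318891, plus strand: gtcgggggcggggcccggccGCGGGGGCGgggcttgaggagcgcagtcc
Klf3, chr5:64803292-64803358, plus strand: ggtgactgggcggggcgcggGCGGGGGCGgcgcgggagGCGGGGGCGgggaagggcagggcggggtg
Klf4, chr4:55532641-55532689, minus strand: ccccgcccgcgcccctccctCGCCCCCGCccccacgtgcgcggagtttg
Egr2, chr10:67537787-67537816, plus strand: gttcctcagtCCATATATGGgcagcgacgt
The Klf2, Klf3 and Klf4 windows held the EGR word, with 2 copies in Klf3 and with the word on the opposite strand in Klf4. The Egr2 stretch held a CArG box, another of different letters stood in the window of a different Egr2 start, and no window of the other 5 genes held one. Counting a gene if any of its windows held an EGR word, 3.93% of all 27025 genes with a window had a match. Among the 9438 tested genes with a window it was 7.45%, so that a match is not rare among expressed genes. A match describes the letters of these windows and does not show that a factor was bound there.

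Between 11662654 and 15975698 reads were counted on genes per library. Mitochondrially encoded genes took 62.6% and 65.7% of them in young and 73.8% and 72.9% in old ISCs. Counts were scaled by the trimmed mean of M values (TMM), which the authors also used, before they were expressed as counts scaled to a common library total (CPM). A library's floor of 3 counts stood at 0.198 to 0.245 CPM. All 10 listed markers of ISCs were detected, with Lgr5 at 231 CPM in young and 207 CPM in old ISCs, and none passed a false discovery rate (FDR) of 0.05. The unadjusted p was under 0.05 for 6 of the 10, beside 16.9% of all genes tested. The log2 fold change (old over young) was negative for 7, beside 50.5% of all genes tested. It was -0.46 (FDR = 0.051) for the Wnt target Axin2 and -0.41 (FDR = 0.088) for the Wnt receptor ligase Rnf43. The 3 positive markers were Ascl2 (0.33, FDR = 0.20), Slc12a2 (0.25, FDR = 0.19) and Smoc2 (0.15, FDR = 0.59). Because these are bulk libraries, fewer cells of a type and less RNA per cell cannot be told apart.

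Of the 10 genes, 8 passed the filter on low counts (over 5 reads together with over 1 CPM in any library) and could be tested, and Egr2 and Klf2 did not. By edgeR's quasi-likelihood test, adjusted over all 13692 genes tested, 1 of the 8 differed between the ages at an FDR under 0.05. This was Egr1, which fell in old ISCs. No tested KLF gene passed the threshold. Among all genes 2.26% passed it, 1.63% as higher and 0.628% as lower in old ISCs. At an unadjusted p under 0.05, 2 of the 8 genes (Egr1 and Klf9) stood against 16.9% of all genes. The median log2 fold change (old over young) of the 8 was 0.16, and that of all genes was -0.0049.

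**Figure D1:**
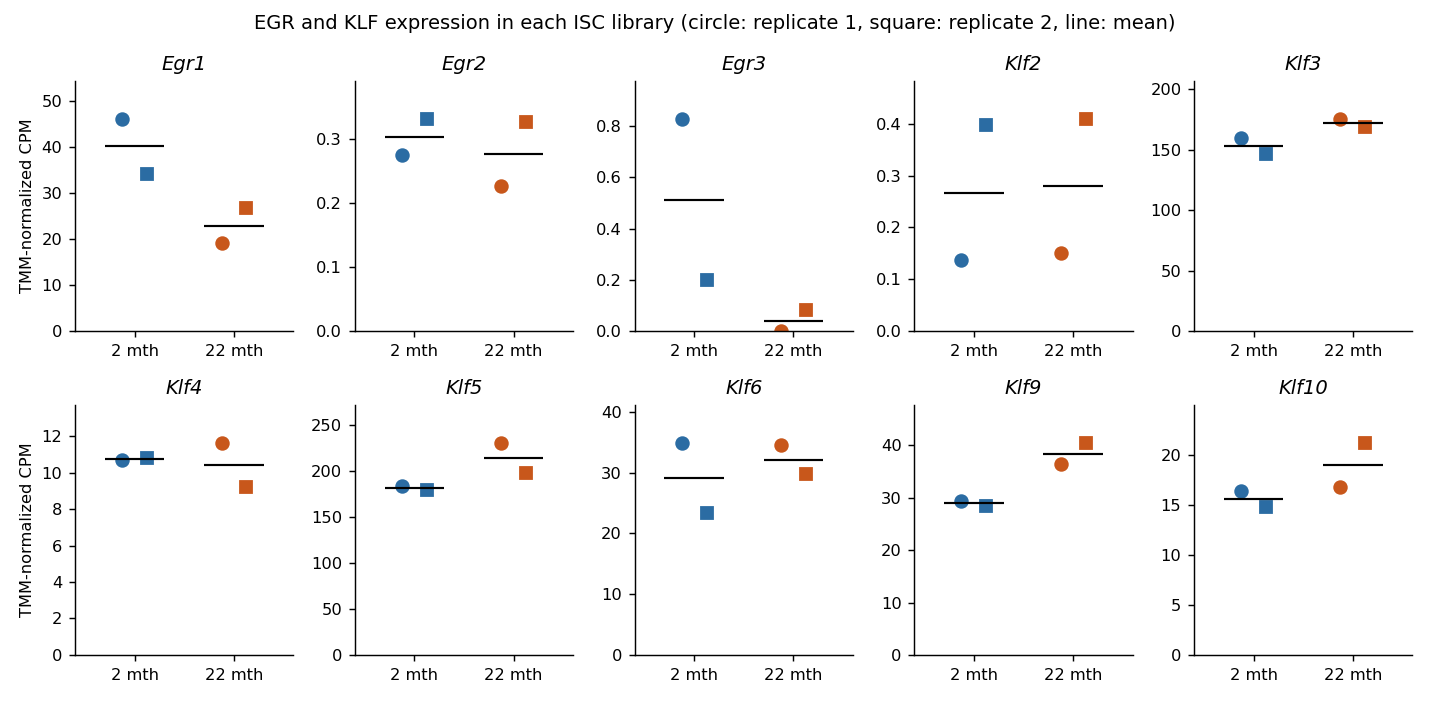
TMM-normalized CPM of the 10 genes in each library, with a line at the mean of each age, young (2 months) in blue, old (22 months) in orange, replicate 1 as a circle and replicate 2 as a square. Both old libraries lie below both young libraries for Egr1, whereas the ages overlap for Klf4 and Klf6.

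Egr1, a transcription factor induced by growth signals, injury and tissue dissociation, was counted with 669 and 518 reads in the young libraries and with 254 and 327 reads in the old ones. These counts correspond to 46.1 and 34.3 CPM in young and 19.2 and 26.7 CPM in old ISCs, and the lowest young library lay above the highest old one. The mean fell from 40.2 ± 8.35 CPM (SD, n = 2) to 23.0 ± 5.34 CPM (SD, n = 2). The log2 fold change was -0.81 (SE 0.18, 95% interval -1.18 to -0.44, FDR = 0.020), so that young ISCs held 1.75-fold as much as old ISCs. The libraries of one age differed from each other by 1.34-fold in young and by 1.39-fold in old ISCs. The first young library was the highest of the 4, and without it the log2 fold change was -0.58 with an FDR of 0.19. Leaving out any of the other libraries gave -1.06 to -0.59 and kept the call.

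The call of Egr1 was lost in a fit with offsets for base composition and length. Egr1 lies on chromosome 18, from 34859823 to 34864984 on the plus strand of GRCm38, and its 4484 exonic bases have a GC content of 57.3%, against a median of 48.3% for the tested genes. Only 7.52% of the tested genes have a higher value. The 1557 tested genes within 2 percentage points of it had a median log2 fold change of -0.17, and Egr1 lay 0.63 below that median. With the offsets its log2 fold change was -0.66 and its FDR 0.086, the only alternative with all 4 libraries under which it missed the threshold. Whether base composition accounts for any of the difference was not tested. In the other 11 such alternatives Egr1 was called lower in old ISCs each time.

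**Figure D2:**
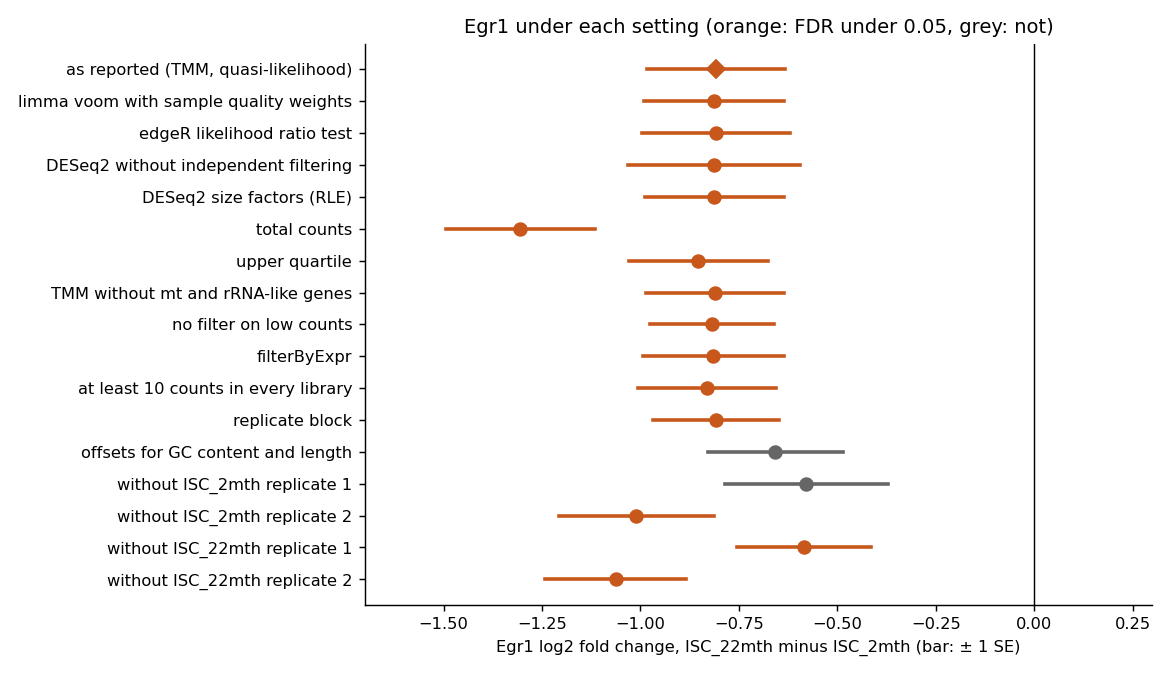
Log2 fold change (old over young) of Egr1, with bars of 1 SE to either side, under each way of processing the counts and without each library in turn. All estimates lie below 0, from -1.31 with scaling by total counts to -0.58 without the first young library.

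Egr2 and Egr3, which are known from nerve myelination and from muscle spindles and lymphocytes, were close to absent. Egr2 (chromosome 10, 67535475 to 67542188, plus strand) had 4 and 5 counts in young and 3 and 4 counts in old ISCs. The ratio of old to young was 0.905 with a 95% counting interval of 0.286 to 2.73, so that a change of Egr2 was not detectable at this depth. Such intervals cover counting error only, because reads copied by amplification were not collapsed to molecules. Egr3 (chromosome 14, 70077203 to 70082614, plus strand) had 12 and 3 counts in young and 0 and 1 count in old ISCs. Both old libraries were lower than both young ones, but the difference rested largely on the 12 counts of a single library, the one that was also highest for Egr1. That library alone carried Egr3 past the filter, and its log2 fold change of -3.42 (SE 1.65, FDR = 0.30) did not pass the test. Its 15 young counts against 1 old count gave a young to old ratio of 12.9 with a counting interval of 1.98 to 543. Egr1 thus supplied 97.7% to 98.8% of all EGR counts in each library, and the sum of the 3 EGR genes was 47.2 and 34.8 CPM in young and 19.4 and 27.1 CPM in old ISCs.

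Of the listed EGR partners, Nab2 fell and Nab1 did not pass the test. Nab2 had 64 and 51 counts in young and 10 and 6 counts in old ISCs. Every old library was far below every young one, and the gene passed the filter only through the young libraries. Its mean went from 3.89 ± 0.732 to 0.623 ± 0.187 CPM (SD, n = 2 each), a log2 fold change of -2.62 (SE 0.48, FDR = 0.0065). It was called lower in old ISCs in all 11 alternatives with 4 libraries that kept it, a filter of at least 10 counts in every library removed it, and it lost the call in 1 of the 4 fits that left out a library. The Nab2 count is uncertain because 34.9% of its 50-base stretches also occur in transcripts of other genes, and 1241 exonic bases overlap Stat6, Nemp1 and Gm16229 on the opposite strand. Stat6 had 723, 641, 500 and 394 counts and a log2 fold change of -0.40 (SE 0.14, FDR = 0.16), and Nemp1 had 0.15 (SE 0.16, FDR = 0.68). Nab1 was at 12.0 ± 2.20 CPM in young and 15.0 ± 0.330 CPM in old ISCs (SD, n = 2 each, log2 fold change 0.32, FDR = 0.43). The remaining members of this list, Egr4 and the related factor Wt1, had no counts in any library.

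The listed genes upstream of EGR genes did not pass the test, with 0 of 6 called in either direction. The 6 were Srf, Elk1, Elk3 and Elk4 together with Mkl1 and Mkl2, which are not SRF or ELK factors. The estimate was negative for 5 of the 6 and positive for Mkl2 (0.047). Elk3 (3, 21, 5 and 1 counts) passed the filter only through a young library, so that its sign was largely set by the filter. Of the other 5 genes 4 were negative. Srf itself was at 12.4 ± 1.89 CPM in young and 9.62 ± 0.0382 CPM in old ISCs (SD, n = 2 each), a log2 fold change of -0.37 (SE 0.20, FDR = 0.38). Elk4 had a log2 fold change of -0.22 (SE 0.13, FDR = 0.43).

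Among other immediate early genes most estimates were negative, and 1 of the 22 tested passed the threshold, beside 2.26% of all genes tested. The list held 31 genes that respond to growth signals and to cell dissociation. The estimate was negative for 19 of the 22, beside 50.5% of all genes tested. However, Atf3, Dusp5, Nr4a1 and Ppp1r15a passed the filter only through young libraries and none passed only through old ones. Of the 18 genes that passed it in both ages 15 were negative, with a median log2 fold change of -0.24. Both old libraries lay below both young ones for 7 of these 18 and above them for 1, beside 23.6% and 24.0% of all genes tested. The called gene was Fosb, a subunit of the AP-1 factor, with 83 and 91 counts in young and 25 and 26 counts in old ISCs. The young and old counts of Fosb did not overlap, and its log2 fold change was -1.55 (SE 0.32, FDR = 0.015). Leaving out a library gave -1.63 to -1.46 for Fosb, and the call was kept in 2 of 4 such fits.

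**Figure D3:**
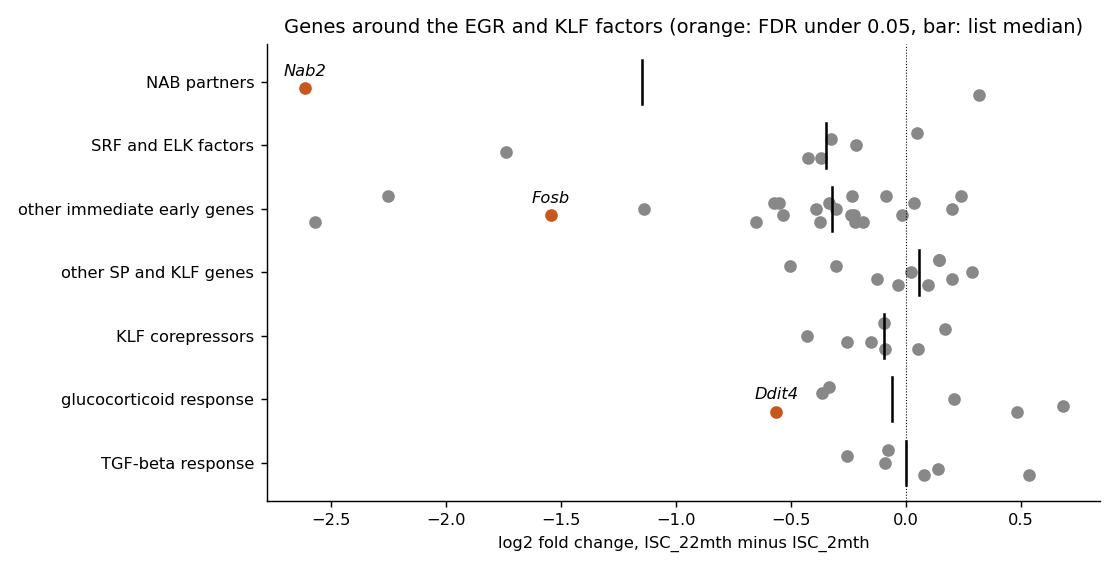
Log2 fold changes (old over young) of the tested genes in each pathway list, 1 point per gene, with the median of the list. Orange points are the called genes Nab2, Fosb and Ddit4, and the points of the other SP and KLF genes lie around a median of 0.06.

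The KLF genes were, but for Klf2, well detected. Of the 7, 6 were tested and 0 passed the threshold in either direction, and the median log2 fold change of the 6 was 0.20. The estimate was positive for 5 of the 6 after TMM scaling, but scaling by total counts alone, which moved the median of all genes by -0.49, made all 6 negative. After TMM scaling both old libraries lay above both young ones for Klf3, Klf5, Klf9 and Klf10 and the ages overlapped for Klf4 and Klf6. Over the 8 tested genes the old libraries were above in 4 and below in 2 (Egr1 and Egr3, of which Egr3 passed the filter only through a young library), while among all genes the ages did not overlap in 47.6%, with old above in 24.0% and old below in 23.6%. By total counts alone the old libraries were above in 0 and below in 5 of the 8, with Klf6, Klf9 and Klf10 overlapping, beside 3.10% above and 68.7% below among all genes. The intervals of the fold changes reached from 0.721-fold (the lower limit of Klf4) to 1.63-fold (the upper limit of Klf9), so that changes beyond these limits lay outside the intervals of the 6 genes.

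**Figure D4:**
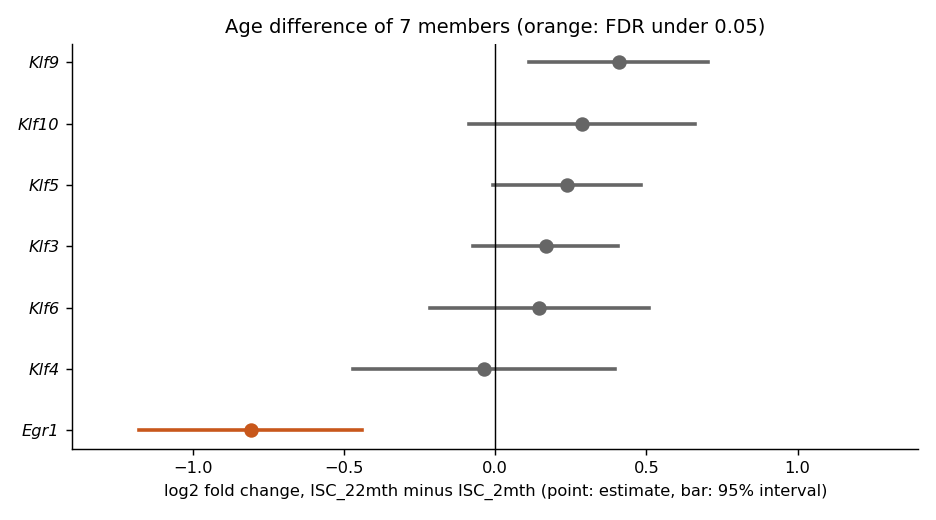
Log2 fold change (old over young) with 95% interval for 7 tested genes, from edgeR's quasi-likelihood test after TMM scaling. The Egr1 interval lies wholly below 0 and that of Klf9 above it, and under scaling by total counts alone the KLF estimates above 0 turn negative.

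Klf5, a factor that promotes proliferation of crypt cells, was the most abundant of the 10. It lies on chromosome 14 from 99298691 to 99315036 on the plus strand. It had 184 and 179 CPM in young and 230.1 and 197.6 CPM in old ISCs, and only 1.01% of the tested genes had a higher mean. Both old libraries were above both young ones, and the gap between the ages was smaller than that between the old replicates. Its log2 fold change was 0.24 (SE 0.12, 95% interval -0.01 to 0.48, FDR = 0.31). Klf4, which slows proliferation and is needed for goblet cell differentiation, was far lower (chromosome 4, 55527143 to 55532466, minus strand). It had 10.7 and 10.8 CPM in young and 11.6 and 9.24 CPM in old ISCs, so that the old libraries lay on either side of the young ones. The log2 fold change of Klf4 was -0.04 (SE 0.21, 95% interval -0.47 to 0.40, FDR = 0.95). Of the 8 crypt proliferation genes listed, 0 passed the threshold, 3 estimates were positive and 5 negative, and the median log2 fold change was -0.02. The lowest p values were those of Pcna (0.28, SE 0.13, FDR = 0.29) and Mki67 (0.18, SE 0.099, FDR = 0.38).

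Klf9, a gene induced by glucocorticoids and thyroid hormone, came nearest to a call among the KLF genes. It lies on chromosome 19 from 23141226 to 23168134 on the plus strand and was counted with 427 and 431 reads in young and 482 and 495 reads in old ISCs. After TMM scaling it had 29.4 and 28.5 CPM in young and 36.4 and 40.5 CPM in old ISCs. Replicates of Klf9 lay close together and the ages apart. The old to young fold was 1.33 (95% interval 1.08 to 1.63) and the log2 fold change 0.41 (SE 0.14, FDR = 0.14). No alternative made it pass, with FDR values from 0.11 to 0.70 using all 4 libraries and from 0.061 to 0.45 with a library left out. Of 7 listed glucocorticoid response genes, 6 were tested and 1 passed the threshold, the growth inhibitor Ddit4, which fell by 0.56 on the log2 scale (SE 0.14, FDR = 0.040) from 55.4 ± 2.35 to 37.5 ± 6.09 CPM (SD, n = 2 each). The call of Ddit4 was lost with DESeq2 (FDR = 0.057) and with the GC content and length offsets (FDR = 0.091), and was kept in 1 of the 4 fits without a library. The 6 estimates of the list were split, with Fkbp5 (0.68), Tsc22d3 (0.48) and the receptor Nr3c1 (0.21) positive and Ddit4, Per1 (-0.37) and Sgk1 (-0.33) negative.

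Klf10, an early gene of TGF-beta signalling, had 16.3 and 14.8 CPM in young and 16.8 and 21.2 CPM in old ISCs (chromosome 15, 38291463 to 38300706, minus strand). The lower old library stood barely above the higher young one, and the log2 fold change was 0.29 (SE 0.18, FDR = 0.44). None of the 6 tested TGF-beta response genes passed the threshold. The estimates were 3 positive and 3 negative, and Smad6, one of the negative genes, passed the filter only through young libraries. The values were 0.14 (SE 0.16, FDR = 0.71) for the SMAD inhibitor Skil and -0.25 (SE 0.32, FDR = 0.75) for the receptor inhibitor Smad7.

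Klf3, a repressor that works with the CtBP corepressors, was the second most abundant gene, with 160.0 and 146 CPM in young and 175 and 169 CPM in old ISCs. Both old libraries were above both young ones by a margin smaller than the gap between the young replicates, and the log2 fold change was 0.17 (SE 0.11, 95% interval -0.07 to 0.41, FDR = 0.49). Klf3 lies on chromosome 5 from 64803388 to 64832901 on the plus strand, and 404 of its 11243 exonic bases overlap Gm20033 on the opposite strand. Of 7 listed KLF corepressors 0 passed the threshold, with log2 fold changes of -0.43 (SE 0.23, FDR = 0.35) for the histone deacetylase Hdac1 and 0.17 (SE 0.12, FDR = 0.53) for Hdac2. Klf6, an early response gene and growth suppressor, had 34.9 and 23.4 CPM in young and 34.5 and 29.8 CPM in old ISCs (chromosome 13, 5861482 to 5870394, plus strand). Its young replicates differed by 1.5-fold and enclosed both old values, and the log2 fold change was 0.15 (SE 0.17, FDR = 0.72).

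Klf2, known for keeping endothelial cells and lymphocytes quiescent, was close to absent (chromosome 8, 72319033 to 72321656, plus strand). It had 2 and 6 counts in young and 2 and 5 counts in old ISCs, and the old to young ratio was 1.02 with a counting interval of 0.314 to 3.21. A change within that interval was not detectable at this depth. The summed level of the 8 endothelial markers listed was 2.12 to 3.31 CPM in young and 2.57 to 3.27 CPM in old ISCs, and Cdh5, Kdr, Flt1 and Emcn had no counts in any library.

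Per kilobase of exon, levels of the 10 genes fell into separate ranges for the highest 2 and the lowest 3. Klf5 had a mean of 38.0 CPM per kb over the 4 libraries (34.5 to 44.2), followed by Klf3 with 14.5 (13.0 to 15.6). Egr1, Klf9 and Klf6 followed with means between 6.98 and 7.04 over the 4 libraries, but their order depended on age. Egr1 (10.3 and 7.64 CPM per kb) lay above Klf9 (6.11 and 5.92) in both young libraries, and Klf6 (7.95 and 5.32) overlapped both. In old ISCs Egr1 (4.28 and 5.96) lay below Klf9 (7.56 and 8.41) and below Klf6 (7.86 and 6.80), and its range overlapped that of Klf10 (4.01 and 5.07). The mean of Klf10 was 4.13 and that of Klf4 3.47 over the 4 libraries, with ranges that overlapped each other. Klf2 (0.148), Egr2 (0.0853) and Egr3 (0.0628) were lowest, and their ranges overlapped as well. Klf3 and Klf5 together took 78.4% to 80.7% of the CPM of the 7 KLF genes, whose sum was 435 and 403 CPM in young and 505 and 467 CPM in old ISCs.

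**Figure D5:**
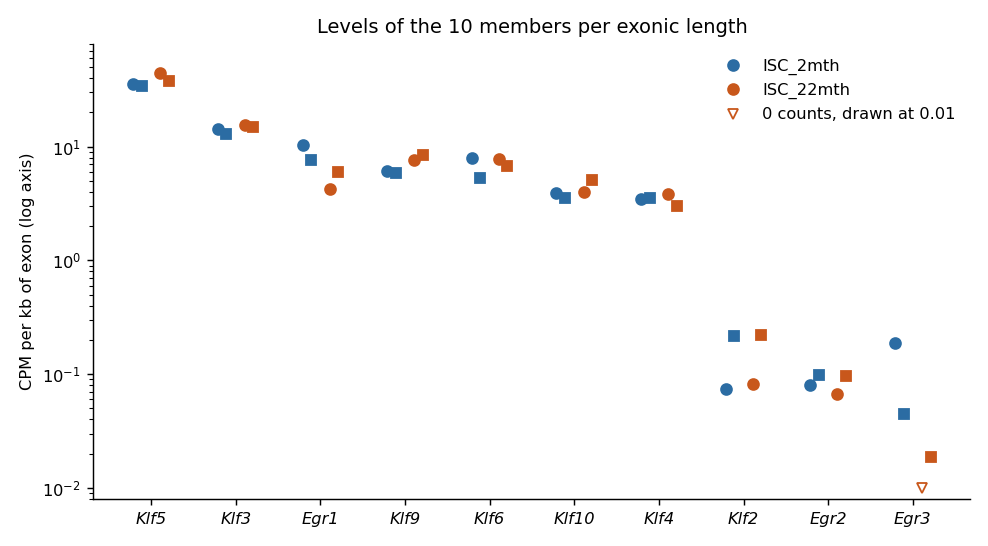
Level of each of the 10 genes in each library, as TMM-normalized CPM per kb of exon on a log axis, with young in blue, old in orange and an open triangle at 0.01 for a count of 0. Klf5 and Klf3 lie above the rest, and Klf2, Egr2 and Egr3 lie lowest, with 0.221 CPM per kb as the highest of their values.

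Further members of the SP and KLF family did not pass the test either. Of 19 listed, 10 were tested, 0 passed the threshold in either direction, 5 had no counts in any library, and the median log2 fold change was 0.06. Sp3, a broadly expressed regulator of GC-box promoters, had a log2 fold change of 0.29 (SE 0.13, FDR = 0.26) and Sp4 one of -0.31 (SE 0.24, FDR = 0.56).

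The genes whose level over the 4 libraries was most like that of Egr1 were 2210407C18Rik, Rps13 and Ubald1. Likeness was the Euclidean distance between log2 CPM values centred over the 4 libraries, among genes with a mean of at least 5 CPM, and the distances were 0.116, 0.126 and 0.127. The measure rests on 4 libraries and carries no p. The choice by likeness to Egr1 fixed the direction of their age difference, and their log2 fold changes of -0.74, -0.87 and -0.88 are given as a description only. Rps13 encodes a ribosomal protein, and 17.5% of the 50-base stretches of Rps13 are shared with other genes.

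Markers of other cells moved with age beside these results. Of 10 enterocyte markers 4 rose in old ISCs (Sis, Fabp1, Fabp2 and Rbp2), and their summed level was 505 to 649 CPM in young and 930.1 to 1023 CPM in old ISCs. Of 8 Paneth markers 2 rose (Defa17 and Defa24), with sums of 725 to 949 CPM in young and 813 to 2094 CPM in old ISCs. Of 8 tuft markers 4 were tested and 2 rose (Ptgs1 and Dclk1, both of which passed the filter only through old libraries), with sums of 3.31 to 5.09 CPM in young and 7.28 to 11.5 CPM in old ISCs. Of 17 leukocyte markers 2 were tested and 1 rose (Itgam), with sums of 14.7 to 18.4 CPM in young and 25.8 CPM in both old libraries. Itgam alone made up 10.2 and 13.0 CPM of these sums in young and 19.2 and 20.6 CPM in old ISCs. Ptprc, which encodes the CD45 used in the sort, had 0, 0, 2 and 0 counts, and Itgax, Adgre1, Cd3g and Cd79a had none. No goblet, enteroendocrine, endothelial or stromal marker passed the threshold. Goblet sums were 1945 to 2562 CPM in young and 2068 to 2655 CPM in old ISCs, with log2 fold changes of 0.19 (FDR = 0.59) for Spink4 and 0.11 (FDR = 0.74) for Muc2. Among enteroendocrine markers Cck had 0.90 (FDR = 0.19) and Neurog3, which passed the filter only through young libraries, -1.14 (FDR = 0.55). The single tested endothelial and stromal markers were Esam (0.13, FDR = 0.92) and Pdgfrb (-1.43, FDR = 0.30). The part of these cells in the values of Egr1, Klf5 and Klf9 was not tested.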

How the data were processed

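RNA of SM6-sorted ISCs was amplified by single primer isothermal amplification, without molecular identifiers, and read from one end. Trimming by the authors used Trimmomatic 0.30, alignment to GRCm38 used STAR 2.4.2a, and featureCounts assigned reads to exons of GENCODE vM15 genes. The deposited values are these raw counts. The strand setting and the treatment of reads with several alignments are not given in the sources used here. The 2 libraries of an age were not copies of one library, as their chi-square per gene was 10.3 in young and 7.53 in old ISCs. That they came from separate animals rests on the sources, since amplification alone can exceed counting noise.

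A gene was kept if any library had over 5 reads together with over 1 CPM (13692 of 52459). Ages were compared with edgeR 4.0.16 in R 4.3.3 (TMM, glmQLFit and glmQLFTest without covariates), and p-values were adjusted by Benjamini-Hochberg over all genes kept, at an FDR of 0.05. Reported CPM values are TMM-scaled, whereas the filter used total counts. Alternatives were limma 3.58.1 (voom with sample quality weights), edgeR's likelihood ratio test, DESeq2 1.42.0, other scalings and filters, the replicate number as a block, offsets for GC content and length (lowess, span 0.3), and each library left out in turn. GC content and length were known for 96.7% of the genes kept, and the others received no offset. The fits were tested on simulated data. Positions and lengths came from GENCODE vM21 of GRCm38, since vM15 was not used here. Libraries of the same number at both ages came from different animals and their deviations did not correlate (-0.0031). With 2 samples per age, p-values rest on the spread between libraries and on dispersions shared across genes. Each pool gave 1 library, so differences between pools, sorts and amplifications were not separated.

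The 10 genes and all lists were chosen with earlier results of these data known. The text names all 10 genes, the called genes of each list or else its 2 genes of lowest p, the 3 genes most like a called one, and genes annotated beside these. Added after the values were seen were Lgr5, the ISC markers with positive estimates, and markers with few or no counts. So were genes that passed the filter through 1 age only, and the other genes of the SRF and ELK list and of the glucocorticoid list. No columns of the authors' own comparisons were used.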

Additional observations from a re-analysis of the deposited data

How the results depend on the processing

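The number of genes called, 309 with 223 higher and 86 lower in old ISCs, was 611 with edgeR's likelihood ratio test, 197 with DESeq2, 554 without a filter, 125 with GC content and length offsets, and 4632 with scaling by total counts, of which 96 were higher and 4536 lower. With the replicate block it was 624, and the block, whose numbers do not pair the samples, changed no call among the 10 genes. Leaving out 1 library gave 151 to 710 genes, the lone library of an age being assumed to vary like the other age. Of the 10 genes, 0 were called with the GC content and length offsets, where Egr1 had -0.66, and 0 to 1 without a library (0 without the first young one, Egr1 at -0.58). Scaling by total counts turned the log2 fold changes to -0.33 for Klf3, -0.26 for Klf5, -0.36 for Klf6, -0.083 for Klf9 and -0.20 for Klf10. Relative to the all-gene median of -0.49 under that scaling they were 0.17, 0.24, 0.14, 0.41 and 0.29. Klf4 turned to 0.018 with the offsets and ranged from -0.21 to 0.12 without a library, and Klf6 ranged from -0.12 to 0.46. Of 125 refits of single genes, 115 kept direction and call, 2 lost the call and 8 changed sign. The causes were not tested. Depth limits Egr2, Egr3 and Klf2, which had at most 12 counts in a library.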

Other observations

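The promoter windows of genes called lower in old ISCs held an EGR word in 5 of 54 (9.26%) and those of genes called higher in 5 of 162 (3.09%), beside 7.45% of all tested genes with a window. These shares are given as counts only, and no window was used here for Egr1, Egr3, Klf5 or Klf10.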
